A study of Zea mays with 12 samples.

Results

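A group of 159 nuclear genes stood out in maize roots given nitrate together with PCIB: each was at least 2-fold higher there on the FPKM + 1 scale than in every other treatment, while the other treatments lay close to each other. PCIB is p-chlorophenoxyisobutyric acid, a synthetic phenoxy acid used in root research to block the action of auxin. Auxin is the plant hormone that triggers the founding of lateral roots. It acts by having Aux/IAA repressor proteins degraded, which frees auxin response factors to switch genes on or off, and PCIB is known to interfere with that degradation. Nitrate, the main form of nitrogen taken up by maize roots, also steers lateral root growth, and the study asked how auxin and the strigolactone hormones take part in that response.

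The genes were chosen by their measured values. FPKM gives sequenced fragments relative to transcript length and to library size, and levels were compared as log2(FPKM + 1). A gene was taken if it had at least 5 FPKM with nitrate plus PCIB, if its log2 level there was at least 1 above that of each other group, and if those other groups lay within a range under 1 of each other. Of 26451 entries in the table, 26061 were nuclear gene models, 14637 of these had at least 5 FPKM with PCIB, 191 of those also passed the margin, and 159 passed all limits. These 159 are 1.09% of the 14637. The heights of the PCIB values and the flatness of the other groups are therefore how the genes were picked and are given below as descriptions. None of the 390 other entries, such as microRNA loci and organelle genes, met the same limits.

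Primary roots of the inbred line B73 were sampled in 4 groups after 24 h in nutrient solution, following 3 days of germination. Seedlings received 1 mM nitrate plus 10 µM PCIB, 2 µM TIS108 in a solution without nitrogen, 1 mM nitrate alone, or the solution without nitrogen as the control; TIS108 inhibits the synthesis of strigolactones. The PCIB group differs from the nitrate group in PCIB alone, but from the control in both nitrate and PCIB, and from the TIS108 group in TIS108 as well. From every treatment came 3 biological replicates, each pooling 4 to 8 plants, which makes 12 samples. The table gives 1 value per gene and group, so there is no SD, no standard error and no p-value for any difference below, and none of them has a replicate check. RNA came from primary roots with all their cell types, so more RNA per cell and more cells of a type cannot be told apart.

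Summed FPKM ranged from 447300 to 497447 over the groups, and the sequencing depth is unknown. The root label was set against 4 plastid genes of green tissue. psbA and psaB, which encode photosystem proteins, were at 1.04 and 0.222 FPKM with nitrate plus PCIB, at 0.433 and 0.0823 FPKM with TIS108, at 0.609 and 0.0999 FPKM with nitrate, and at 0.487 and 0.117 FPKM in the control. All 4 genes, with rbcL and petA, summed to 7.16 FPKM with nitrate plus PCIB, against 7.06 FPKM with TIS108, 6.73 FPKM with nitrate and 5.13 FPKM in the control. None of the 4 was at 0. Their sum was highest in the PCIB group, by a small margin over TIS108 and a wider one over the control. Of the single genes, psbA and psaB were highest in the PCIB group, and rbcL and petA with TIS108. The libraries were made from poly(A) RNA, and how fully they hold plastid transcripts is unknown, which limits this check. The part of these genes in the results was not tested.

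None of the 159 genes carries a name or product in the sources used here: 0 of the 159 identifiers, and 0 of all 26061 nuclear gene models, matched the RefSeq gene table. They are therefore given by identifier, without a role, and are ordered by how strongly they were expressed in roots that had not received PCIB. The split into 4 classes of level was made after the values were seen. Of gene models at 5 FPKM or more with PCIB, the list took 15 of 15 (100%) with a highest other value under 1 FPKM. It took 61 of 324 (18.8%) at 1 to under 5, 47 of 8391 (0.560%) at 5 to under 20 and 36 of 5907 (0.609%) at 20 or more. The first share is fixed by the rule, since such genes always pass the margin and the range.

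Together the genes took up 2.03% of all FPKM in the PCIB group, against 0.568% with TIS108, 0.480% with nitrate and 0.537% in the control. Their median level was 20.4 FPKM with nitrate plus PCIB, 4.82 FPKM with TIS108, 3.39 FPKM with nitrate and 5.14 FPKM in the control. Levels with PCIB ran from 5.01 to 1049.9 FPKM, and the 8 most abundant genes made up 36.4% of the summed FPKM of the 159 genes there. The list therefore mixes genes near the lower limit with a few that were among the abundant transcripts of the root.

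**Figure D1:**
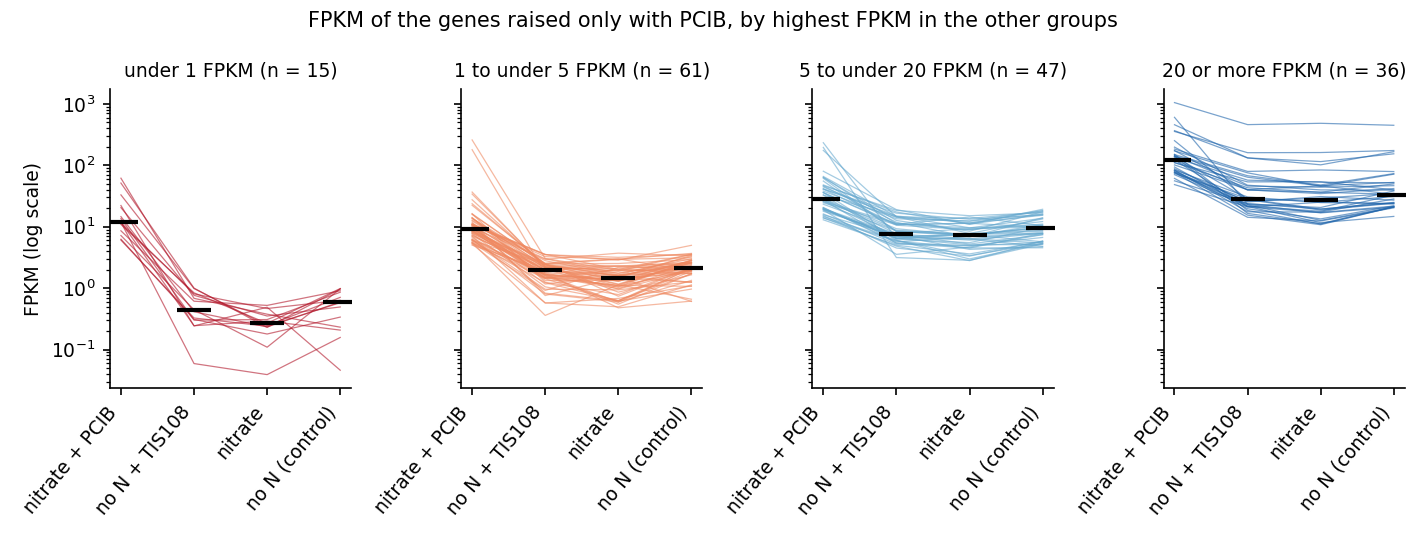
FPKM of each of the 159 genes (a line joins the values of 1 gene, on a log axis) in the 4 treatments, in panels by the highest FPKM reached without PCIB; black bars are medians. In the leftmost panel the 15 genes under 1 FPKM without PCIB have a median of 12.0 FPKM with it, and in the rightmost the 36 genes at 20 FPKM or more have a median of 122 FPKM with it.

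A first set of 15 genes was close to silent without PCIB, under 1 FPKM in every other group, and reached 6.06 to 61.7 FPKM with it. All 15 lay at least 4-fold above every other group, which the limits on level largely force: a gene this low elsewhere has to differ widely to reach 5 FPKM. Zm00001d051254 had 61.7 FPKM with nitrate plus PCIB, 0.681 FPKM with TIS108, 0.376 FPKM with nitrate and 0.231 FPKM in the control. Zm00001d006947 had 51.4 FPKM with nitrate plus PCIB, against 0.999 FPKM with TIS108, 0.229 FPKM with nitrate and 0.965 FPKM in the control. Zm00001d021168 had 33.0 FPKM with nitrate plus PCIB and at most 0.983 FPKM elsewhere. The plain ratio to the highest other group was 90.6 for Zm00001d051254 and had a median of 24.6 over the 15 genes. The lowest levels without PCIB belonged to Zm00001d034068, at 11.9 FPKM with nitrate plus PCIB, 0.059 FPKM with TIS108, 0.039 FPKM with nitrate and 0.157 FPKM in the control. Next came Zm00001d051259, at 12.0 FPKM with PCIB and at most 0.291 FPKM elsewhere, and Zm00001d042739, at 6.25 FPKM with PCIB and at most 0.337 FPKM elsewhere. Zm00001d002984, at 22.1 FPKM with PCIB and at most 0.488 FPKM elsewhere, and Zm00001d006622, at 20.4 FPKM with PCIB and at most 0.763 FPKM elsewhere, complete the near-silent genes among the 10 widest excesses. How many fragments stand behind such low values is unknown, and no limit of detection can be given for them.

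The largest class, 61 genes, was weakly expressed without PCIB, with a highest value of 1 to under 5 FPKM. It held the widest differences of the whole list. Zm00001d007285 had 179.7 FPKM with nitrate plus PCIB, 1.73 FPKM with TIS108, 0.477 FPKM with nitrate and 0.614 FPKM in the control. Its log2 level with PCIB was 6.05 above the highest other group, and the plain ratio to that group was 104. Zm00001d051251 had 258.9 FPKM with nitrate plus PCIB, 3.04 FPKM with TIS108, 1.95 FPKM with nitrate and 1.97 FPKM in the control, a log2 excess of 6.01. These are the 2 genes past 64-fold on the FPKM + 1 scale. Most of the class differed far less: the median excess was 1.54, only 16 of the 61 reached 4-fold, and the median level was 9.30 FPKM with nitrate plus PCIB, 1.95 FPKM with TIS108, 1.45 FPKM with nitrate and 2.15 FPKM in the control. Genes between these extremes included Zm00001d021901, at 36.7 FPKM with PCIB and at most 2.69 FPKM elsewhere, and Zm00001d053715, at 34.0 FPKM with PCIB and at most 2.59 FPKM elsewhere; both were picked after their values were seen.

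Another 47 genes were moderately expressed without PCIB, at 5 to under 20 FPKM in the highest other group. Here 9 genes reached 4-fold, and a pair of them stood far apart from the rest. Zm00001d042104 had 195 FPKM with nitrate plus PCIB, 3.14 FPKM with TIS108, 2.83 FPKM with nitrate and 5.21 FPKM in the control, a log2 excess of 4.98. Zm00001d031666 had 233 FPKM with nitrate plus PCIB, 6.43 FPKM with TIS108, 6.26 FPKM with nitrate and 4.80 FPKM in the control, also an excess of 4.98. The median excess of the class was 1.33. Its median level was 28.3 FPKM with nitrate plus PCIB, against 7.71 FPKM with TIS108, 7.37 FPKM with nitrate and 9.63 FPKM in the control.

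The last 36 genes were well expressed in every group, at 20 FPKM or more in the highest group without PCIB and at least 10.8 FPKM in each. The most abundant gene of the list, Zm00001d004700, had 1049.9 FPKM with nitrate plus PCIB, 459.6 FPKM with TIS108, 483 FPKM with nitrate and 449 FPKM in the control. It was among the flattest without PCIB, with a log2 range of 0.11, and its excess with PCIB was 1.12. Zm00001d028693 showed the widest difference at this level, with 604 FPKM with nitrate plus PCIB, 23.0 FPKM with TIS108, 16.8 FPKM with nitrate and 20.8 FPKM in the control. Its ratio to the highest other group was 26.2. Zm00001d009938 had 252 FPKM with nitrate plus PCIB, 27.6 FPKM with TIS108, 18.6 FPKM with nitrate and 24.2 FPKM in the control. Further abundant genes lay nearer the 2-fold limit: Zm00001d049179 had 458 FPKM with nitrate plus PCIB, 132 FPKM with TIS108, 102 FPKM with nitrate and 167 FPKM in the control. Zm00001d004936 had 367 FPKM with nitrate plus PCIB, 132 FPKM with TIS108, 115 FPKM with nitrate and 154 FPKM in the control. Across the class the median excess was 1.44, and 7 of 36 genes reached 4-fold.

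**Figure D2:**
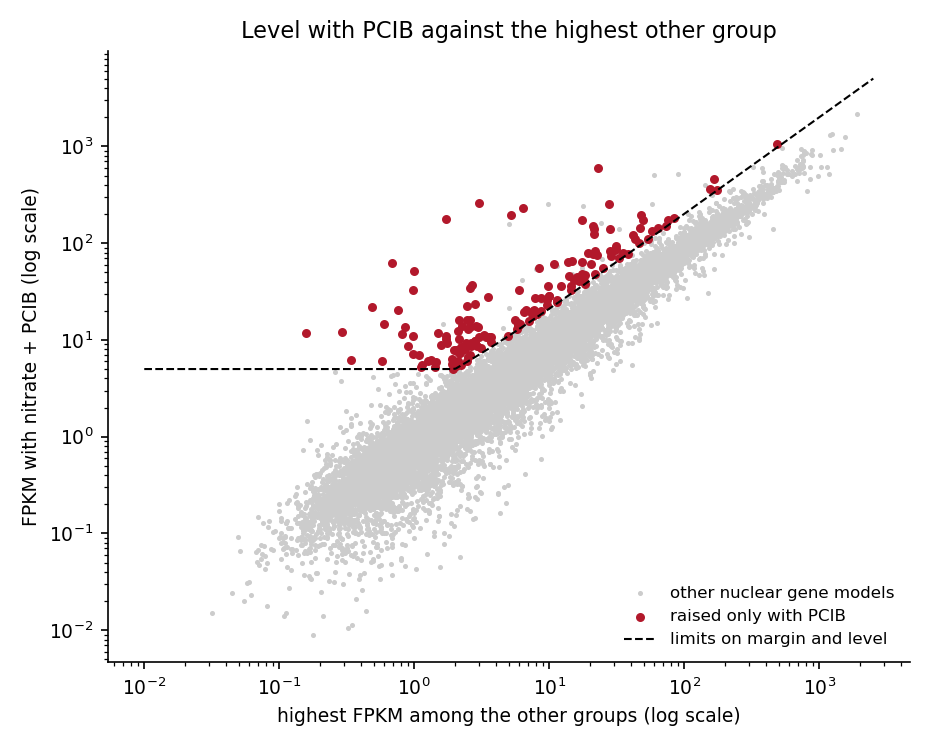
FPKM with nitrate plus PCIB (vertical) against the highest FPKM of the other groups (horizontal) for nuclear gene models, both axes logarithmic; red points are the 159 genes, grey points the others with values above 0, and the dashed line is the limit on level and margin. Grey points above the line are genes left out because the groups without PCIB lay too far apart; most red points sit near the line, and Zm00001d007285 and Zm00001d051251, at 179.7 and 258.9 FPKM, lie farthest above it.

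Over the whole list the median log2 excess over the highest other group was 1.49. Of the 159 genes 47 (29.6%) reached 4-fold, 17 reached 8-fold, 8 reached 16-fold and 3 reached 32-fold. Measured against each group in turn, the median log2 difference was 1.77 against TIS108, 1.95 against nitrate and 1.58 against the control, where the 14637 nuclear gene models at 5 FPKM or more with PCIB had medians of 0.00, -0.03 and 0.02. The genes at the limits lay close to each other. Just inside the margin lay Zm00001d046596, Zm00001d009961 and Zm00001d002503, all at an excess of 1.01, and just outside it Zm00001d032854 at 0.997, Zm00001d000924 at 0.992 and Zm00001d042609 at 0.982. Just inside the limit on the other groups lay Zm00001d052435 with a range of 0.998 and Zm00001d051791 with 0.978. Just outside it lay Zm00001d027557 with a range of 1.002 and Zm00001d044159 with 1.012, although their excesses of 4.55 and 4.73 were among the widest of all genes. Zm00001d022957, at 5.01 FPKM, was just above the minimum level, and Zm00001d048456, at 4.80 FPKM, just below it. In all, 32 genes passed level and margin but not the range, and 28 passed margin and range but not the level.

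When the same limits were applied with another group in the place of the PCIB group, fewer genes were found. Against the 159 with nitrate plus PCIB stood 0 genes higher with TIS108 alone (0% of 14380 at 5 FPKM or more there), 9 higher with nitrate alone (0.063% of 14291) and 60 higher in the control alone (0.408% of 14708). The largest log2 excess was 6.05 with nitrate plus PCIB, 1.52 with nitrate and 1.93 in the control, and none of the 9 or the 60 genes reached 4-fold. The mirrored limits, with at least 5 FPKM in each group without PCIB, gave 28 genes lower with PCIB alone (0.206% of 13562). These counts describe single columns of the table, and whether the column of the PCIB group stands apart by treatment or by its libraries cannot be told apart here.

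**Figure D3:**
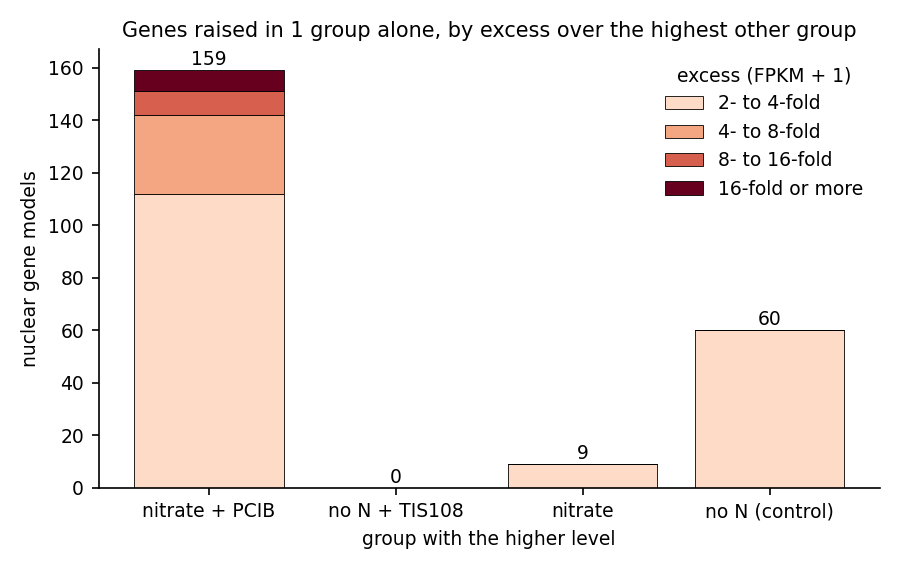
Number of nuclear gene models higher in 1 treatment than in every other one (same limits on level, margin and range), stacked by the fold excess on the FPKM + 1 scale. The bar for nitrate plus PCIB holds 159 genes, of which 47 are at 4-fold or more; the bars for TIS108, nitrate and the control hold 0, 9 and 60 genes, all under 4-fold.

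The pairwise comparisons set the list beside all genes that differed between the PCIB group and each other group. Against nitrate alone, 571 nuclear gene models were at least 2-fold higher with nitrate plus PCIB among 15196 at 5 FPKM or more in either group (3.76%), and 105 were lower (0.691%). By the rule all 159 genes are among the 571, where they make up 27.8%. Most genes that were higher with PCIB than with nitrate alone thus did not pass the other limits. Against TIS108, 421 of 15147 were higher (2.78%) and 110 lower (0.726%), and the 159 are 37.8% of the 421. Against the control, 299 of 15388 were higher (1.94%) and 296 lower (1.92%), and the 159 are 53.2% of the 299. These comparisons share the PCIB column, so their lists overlap by construction.

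The order of the treatments without PCIB was not set by the rule, which only limits how far apart they may lie, and most of the 159 genes had the same group at the bottom. In 112 of them (70.4%) nitrate alone gave the lowest level, TIS108 did so in 24 and the control in 23. The control was the highest of the treatments without PCIB in 98 genes (61.6%), TIS108 in 47 and nitrate in 14. Among the 13886 other nuclear gene models at 5 FPKM or more with PCIB and within the same range, nitrate was lowest in 23.9% and the control highest in 30.5%. The same limit left unlike spreads, with a median range of 0.47 in the 159 genes and 0.25 in these others. With a range under 0.5, nitrate was lowest in 46 of 84 genes of the list. Among the 60 genes higher in the control alone, nitrate was the lowest treatment without PCIB in 44 (73.3%). The control cannot be lowest there by the choice, so this share cannot be set against the 70.4%. Whether the pattern is particular to the 159 genes is therefore not shown. By the rule the highest of all 4 values came from nitrate plus PCIB in every gene of the list. The lowest, which the rule leaves free, came from nitrate alone in most of the 159 genes.

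Nitrate was the lowest treatment for most genes at every level. It was lowest in 11 of the 15 near-silent genes, 43 of the 61 weakly expressed, 35 of the 47 moderately expressed and 23 of the 36 well expressed ones. In other nuclear gene models within the range, with no minimum with PCIB, nitrate was lowest in 40.4% of those under 1 FPKM, 36.5% of those at 1 to under 5, 25.1% of those at 5 to under 20 and 22.8% of those at 20 FPKM or more. Among the 47 genes past 4-fold nitrate was lowest in 38, and among the 112 under 4-fold in 74. The share is a description of 1 value per group, and no test of it was made.

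**Figure D4:**
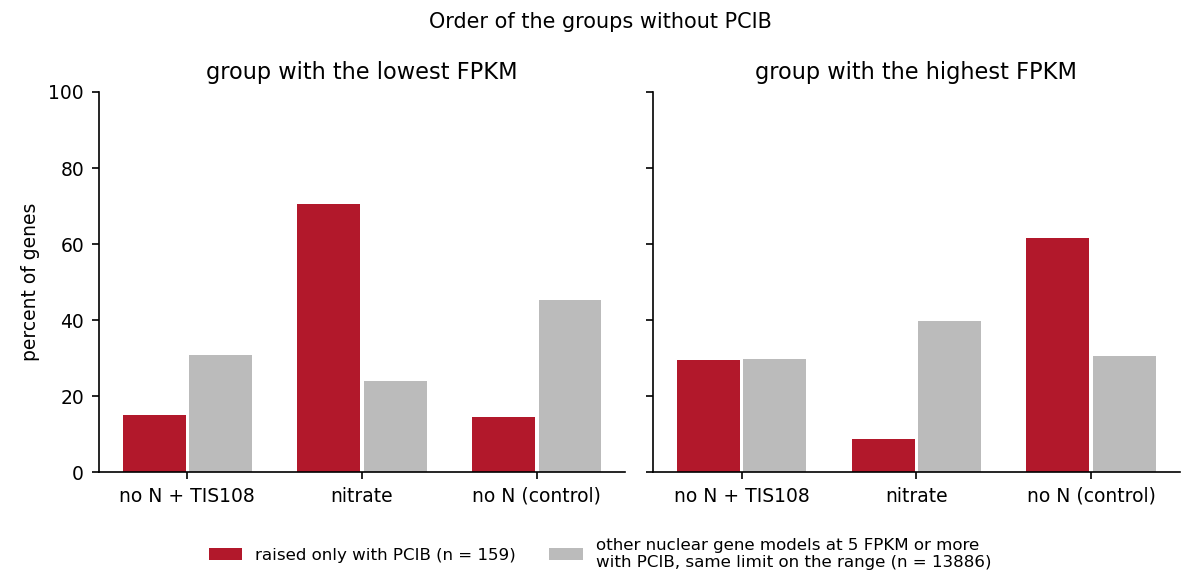
Percent of genes for which TIS108, nitrate or the control had the lowest (left) or the highest (right) FPKM of the treatments without PCIB, for the 159 genes (red) and for the other nuclear gene models at 5 FPKM or more with PCIB within the same range (grey). Nitrate is lowest in 70.4% of the red genes and 23.9% of the grey ones, and the control is highest in 61.6% and 30.5%.

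In size these differences were small, since the range limit keeps them under 1. The median log2 difference of nitrate from the control over the 159 genes was -0.34, against 0.06 over the 13886 others, and that of TIS108 from the control was -0.13 against 0.03. Scaling every group to an equal total of FPKM brought the TIS108 value of the 159 genes to -0.015, and quantile normalization brought it to -0.035. Such scaling also shifts the other genes. Their median was not computed under it, so these values cannot be set against the 0.03. The lowest nitrate values relative to the control were those of Zm00001d051791, Zm00001d009398 and Zm00001d044157. Zm00001d009398 had 63.3 FPKM with nitrate plus PCIB, 12.6 FPKM with TIS108, 8.43 FPKM with nitrate and 17.6 FPKM in the control. Zm00001d044157 had 45.9 FPKM with nitrate plus PCIB, 11.8 FPKM with TIS108, 6.80 FPKM with nitrate and 14.0 FPKM in the control. In both genes the control was the highest of the treatments without PCIB, and the level with nitrate plus PCIB was over 3 times that of the control.

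A minority of the genes went the other way and was lowest in the control. Zm00001d021075 had 11.9 FPKM with nitrate plus PCIB, 0.756 FPKM with TIS108, 1.501 FPKM with nitrate and 0.607 FPKM in the control. Zm00001d009174 had 13.7 FPKM with nitrate plus PCIB, 2.55 FPKM with TIS108, 2.99 FPKM with nitrate and 1.90 FPKM in the control. In both of these genes nitrate alone lay above TIS108 and the control, an order found in 10 of the 23 genes that were lowest in the control; in the other 13 TIS108 was above nitrate. The widest excess of TIS108 over the control was that of Zm00001d007285, whose values are given above, followed by Zm00001d047765 with 123 FPKM with nitrate plus PCIB, 21.3 FPKM with TIS108, 11.6 FPKM with nitrate and 14.7 FPKM in the control. At the other end Zm00001d028880 had 18.7 FPKM with nitrate plus PCIB, 3.55 FPKM with TIS108, 4.67 FPKM with nitrate and 7.41 FPKM in the control, and Zm00001d024996 had 41.0 FPKM with nitrate plus PCIB, 10.8 FPKM with TIS108, 11.4 FPKM with nitrate and 18.2 FPKM in the control. Of the 32 genes that failed the range limit alone, nitrate was lowest in 28 and the control highest in 26. How often the same holds in other gene models with a range this wide was not counted, so these counts have no background here.

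The identifiers of the 159 genes showed a feature that the rule did not use. Identifiers of this maize annotation were largely numbered in order along the chromosomes, so that consecutive numbers usually mark neighbouring genes; positions were not checked here. Of the 159 genes 20 (12.6%), in 10 pairs, carried a number directly next to that of another gene of the list, whereas 152 of the 25902 other nuclear gene models (0.587%) had a number next to one of the 159. Widened to steps of 10 numbers or fewer, 35 genes (22.0%) fell into 16 groups of 2 or 3. The share of other gene models within 10 numbers of a member was not counted. The 0.587% holds for directly adjacent numbers alone, so the shares within 10 numbers have no background here. Adjacent numbers also occurred in 2 of the 28 genes lower with PCIB alone (7.14%), against 0.111% of the gene models outside that set. Within 10 numbers there were 4 such genes (14.3%). They occurred in 2 of the 9 genes higher with nitrate alone (22.2%, the same within 10 numbers), against 0.027% outside that set. Of the 60 genes higher in the control alone 0 had an adjacent number, also within 10 numbers, against 0.246% outside that set. Each count of 2 is a pair in a small set. Whether the feature is particular to the 159 genes is therefore not shown.

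The pairs differed in how alike their members were. Zm00001d026757 and Zm00001d026758 were alike in every group, with 6.17 and 5.21 FPKM with nitrate plus PCIB, 0.801 and 0.574 FPKM with TIS108, 0.597 and 0.496 FPKM with nitrate, and 1.34 and 1.13 FPKM in the control. Zm00001d046225 and Zm00001d046226 differed in level but had similar excesses of 1.27 and 1.34, at 19.7 and 73.6 FPKM with PCIB. Zm00001d045042 and Zm00001d045043 were abundant and flat without PCIB, at 356 and 142 FPKM with nitrate plus PCIB, 160.4 and 45.9 FPKM with TIS108, 161 and 44.0 FPKM with nitrate, and 174 and 46.6 FPKM in the control. Zm00001d034387 and Zm00001d034388 were likewise well expressed, with 55.9 and 172 FPKM with PCIB and excesses of 1.14 and 1.18.

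Other pairs were unequal. Zm00001d028692 had 83.0 FPKM with nitrate plus PCIB, 19.6 FPKM with TIS108, 13.4 FPKM with nitrate and 21.9 FPKM in the control, close to its neighbour Zm00001d028693 without PCIB, but that gene reached 604 FPKM with it. Zm00001d006948 had 7.18 FPKM with nitrate plus PCIB, 0.444 FPKM with TIS108, 0.109 FPKM with nitrate and 0.973 FPKM in the control, beside the 51.4 FPKM of Zm00001d006947 with PCIB. Zm00001d005001 and Zm00001d005002 reached similar levels with PCIB, 133 and 142 FPKM, against at most 57.3 and at most 21.3 FPKM without it. The other pairs were Zm00001d029703 with Zm00001d029704, Zm00001d042739 with Zm00001d042740, and Zm00001d052434 with Zm00001d052435, with excesses between 1.24 and 2.75. The widest group held Zm00001d051251, Zm00001d051254 and Zm00001d051259, with excesses of 6.01, 5.22 and 3.33. A listed gene between them, Zm00001d051252, was at 6.52 FPKM with nitrate plus PCIB, 4.00 FPKM with TIS108, 5.74 FPKM with nitrate and 3.74 FPKM in the control.

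**Figure D5:**
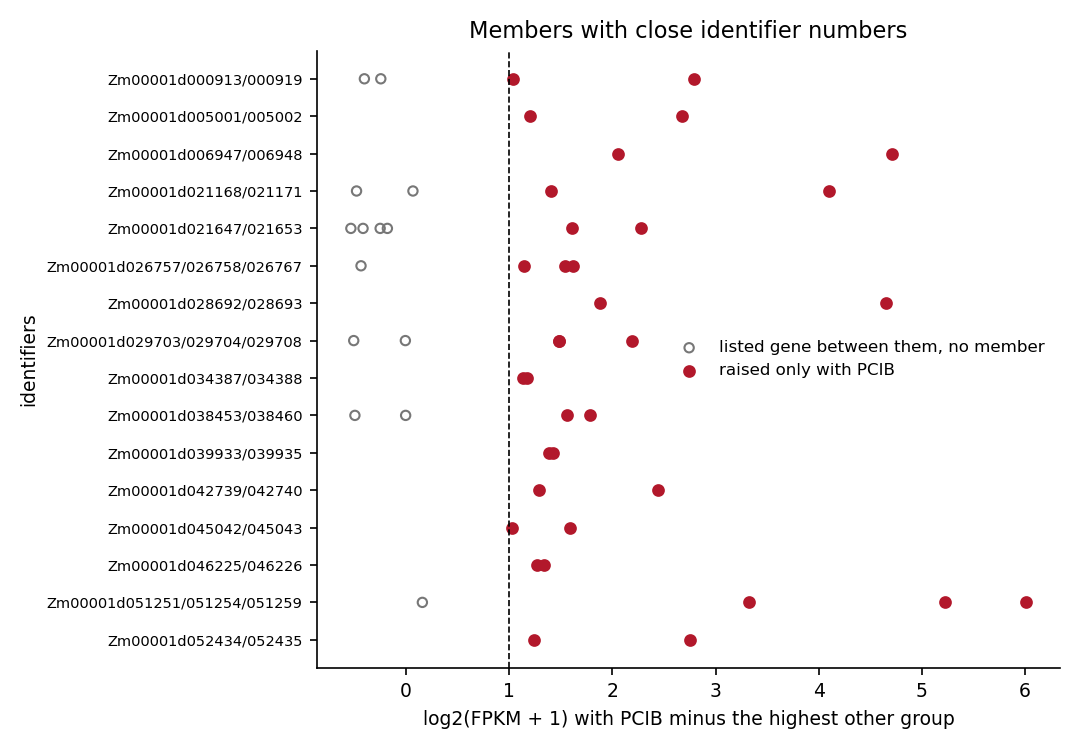
Log2(FPKM + 1) with nitrate plus PCIB minus that of the highest other group for the 16 groups of genes whose identifier numbers lie 10 or fewer apart (red), with listed genes numbered between them (open circles); the dashed line is the limit of 1. The open circles are genes that did not meet the limits, which largely sets their place left of the line, and they lie between -0.53 and 0.16. The red points of the group around Zm00001d051251 lie at 3.33 to 6.01.

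Genes numbered next to a member but not in the list were looked at as well. Neighbours that met the limits are in the list themselves, so the remaining ones are low by this choice, and their values say nothing of neighbours in general. Of 152 such genes 87 (57.2%) had a higher level with nitrate plus PCIB than with nitrate, and the median log2 difference was 0.04, against 47.3% and -0.02 over the other 25750 nuclear gene models outside the list. Of the 80 with 5 FPKM or more in either group, 8 (10.0%) were at least 2-fold higher with nitrate plus PCIB than with nitrate and 0 were lower, against 2.70% and 0.702% over the others. The widest was Zm00001d040244, next to Zm00001d040245, with 160.3 FPKM with nitrate plus PCIB, 15.8 FPKM with TIS108, 9.12 FPKM with nitrate and 24.0 FPKM in the control; it was left out because its range without PCIB was 1.31. Neighbouring genes in maize can be near-identical copies, and the sources used here do not say how fragments that match several copies were counted. Values of such pairs may therefore share fragments; this was not tested, although no gene of the list had the same 4 values as another entry.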

How the data were processed

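Poly(A) RNA of primary roots was sequenced as paired-end TruSeq libraries, per the labels' protocols. Per the submitters' processing notes, the tools were TopHat2 2.0.13, Trimmomatic 0.39 and CASAVA 1.8, on build B73 RefGen_v4; the notes name no steps. The authors deposited 1 table of FPKM values with 1 column per group; the way replicates were combined and the program that computed the values are not given in the sources used. There were 0 columns without a group. The plan named limma for replicate columns; with 1 value per gene and group, 0 tests were made and fold limits used instead.

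Values were read with Python 3.11.15 and pandas 2.3.3 and transformed as log2(FPKM + 1), which understates differences of low genes. A pairwise difference was counted at 2-fold or more on that scale, provided the higher group had at least 5 FPKM. The selection rule was tested on simulated data. The genes, the rule and the summaries were chosen with earlier results of these data known. Genes named were drawn from those with the widest excess (10), the highest level with PCIB (8) and consecutive identifiers. Also drawn on were the extremes of level and of the differences among the other groups (3 each). Genes at the limits came from the 3 on each side. Some of the extremes and of the genes at the limits are not named. Others are named as chosen after their values were seen, or by their place beside these. Planned lists by gene product could not be filled. Alternatives were other pseudocounts, minimum levels, margins, ranges and scalings, and entries of shared values left out. A median counted as moved when it left the 95% binomial interval of the median over genes, and a count when it changed by over 1.5 times.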

Additional observations from a re-analysis of the deposited data

How the results depend on the processing

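The list of 159 genes held 161, 159 and 157 genes with columns rescaled to the same sum, by the median of ratios and after quantile normalization, and 154, 157 and 152 of the original genes were kept. It was 142 with a pseudocount of 0.1 and 109 with one of 5, with 124 and 95 genes kept, and 187 without a minimum, 121 at 10 FPKM and 191 with no limit on the range. A margin of 1.5 left 78 genes and a range under 0.5 left 84.

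The median excess was 1.71 and 1.10 with pseudocounts of 0.1 and 5, 2.13 with the wider margin and 1.41 with the narrower range. Genes past 4-fold numbered 20 with a pseudocount of 5 and 19 with the narrower range. The median nitrate difference from the control was -0.20 with a pseudocount of 5, -0.28 with the same sum, -0.46 with the wider margin and -0.16 with the narrower range; that of TIS108 was -0.015 with the same sum, -0.035 after quantile normalization and -0.059 with the narrower range. Nitrate was lowest in 61 of the 78 genes with the wider margin and in 46 of the 84 with the narrower range. In the main list it was lowest in 112 of the 159, and under the 3 scalings in 113, 119 and 104 of the 159. Rescaling to the same sum moved the median difference of PCIB from TIS108 over all nuclear gene models at 5 FPKM or more to -0.11.

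Genes higher in the control alone numbered 16 with a pseudocount of 5, 92 without a minimum, 33 at 10 FPKM, 10 with the wider margin and 27 with the narrower range. Those higher with nitrate alone numbered 5 with a pseudocount of 5, 1 with the wider margin and 16 with no limit on the range, and 1 gene was higher with TIS108 alone with the same sum. Those lower with PCIB alone numbered 7 with a pseudocount of 5, 5 with the wider margin and 16 with the narrower range. Genes next to another of the list numbered 12 and 10 with pseudocounts of 0.1 and 5, 12 at 10 FPKM and 6 with either the wider margin or the narrower range. The cause of these shifts was not tested, apart from the stricter limits, which leave fewer genes. No paired analysis was possible because the columns carry no replicates, and for the same reason no replicate was left out. Depth limits the reading of genes under 1 FPKM without PCIB, for which no counting error can be given.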
